A study of Homo sapiens with 6 samples.

Results

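The genes carried by mitochondrial DNA, and the nuclear genes that copy, transcribe and process it, were followed in OVCAR8, a cell line from a high grade serous ovarian cancer. All symbols beginning with MT- were taken (15 genes: 13 protein-coding and 2 ribosomal RNAs), together with those of 25 listed nuclear genes of mitochondrial DNA replication, transcription and RNA processing that reached a value of 10 in 2 or more of the 6 samples (21 genes). This gave 36 members among the 14930 genes of the matrix. The 4 listed nuclear genes below the limit were TEFM, MTERF1, TRMT10C and PPARGC1B. The mitochondrial transfer RNA genes were not analysed here.

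RNA-Seq was performed on 3 groups of 2 replicates, all collected after 72 hours, to look for genes controlled by EZH2. Control cells received the solvent DMSO. The DZNep group received DZNep at 5 μM, an inhibitor of S-adenosylhomocysteine hydrolase that is known to lower EZH2 protein. The shEZH2 group was made of cells with a hairpin against EZH2, the methyltransferase subunit of Polycomb repressive complex PRC2, switched on by doxycycline at 1 μg/mL, and is also called silencing below. The labels write mM for DZNep and mg/mL for doxycycline, whereas the study's methods give the units used here. The hairpin cells are the single line OVCAR8-shEZH2#2, and the sources used here do not give which of the parental or the hairpin line served as control. The hairpin line, doxycycline, which is known to bind bacterial-type ribosomes such as those of mitochondria, and the loss of EZH2 therefore cannot be told apart in the shEZH2 group. Nothing in the labels says that replicates came from separate cultures, so p-values measure only the spread between these samples.

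Mitochondrial DNA is transcribed from both strands as long precursors that are cut into ribosomal, messenger and transfer RNAs, mostly at the transfer RNAs that lie between the genes. Its messages encode core subunits of complexes I, III, IV and V of the respiratory chain, whereas every protein needed to replicate, transcribe, cut, stabilise and translate them is encoded in the nucleus and imported. Ovarian cancer cells are known to use oxidative phosphorylation for part of their energy.

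In 4 places of the genome neighbouring members meet with no transfer RNA between them, and in 3 of these they share bases, so that reads there cannot be assigned to 1 gene alone. These junctions are shown because MT-ATP8, MT-ATP6, MT-CO3, MT-ND4L and MT-ND4 are measured across them, and because FASTKD5, described below, is known to be needed for cutting precursors at sites that lack a transfer RNA. They are given from the forward strand of the hg38 mitochondrial chromosome (16569 bases), and the capitals mark the bases shared by both genes, or, at the last junction, the end of MT-ND6, which is read from the other strand.
MT-ATP8 into MT-ATP6, chrM:8507-8592: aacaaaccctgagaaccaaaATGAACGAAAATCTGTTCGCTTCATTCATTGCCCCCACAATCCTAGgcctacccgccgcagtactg
MT-ATP6 into MT-CO3, chrM:9182-9232: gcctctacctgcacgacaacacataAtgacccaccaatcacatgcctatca
MT-ND4L into MT-ND4, chrM:10738-10788: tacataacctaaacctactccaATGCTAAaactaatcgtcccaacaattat
MT-ND5 against MT-ND6, chrM:14124-14173: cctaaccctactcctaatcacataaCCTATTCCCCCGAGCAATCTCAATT
The shared stretch is 46 bases for MT-ATP8 and MT-ATP6 (8527 to 8572), 7 bases for MT-ND4L and MT-ND4 (10760 to 10766) and 1 base for MT-ATP6 and MT-CO3 (9207).

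The matrix holds 1 whole number per gene and sample, scaled by the authors so that each sample adds up to between 999956 and 1000068. These are not read counts, the depth is unknown, and it is not stated whether they are divided by gene length, so levels were compared between samples and not between genes. Differences are log2 fold changes of value + 1 after TMM scaling (factors 0.915 to 1.13), tested with limma on all 6 samples for the 9671 genes that reached 10 in 2 or more samples, with Benjamini-Hochberg adjustment over all of them and a threshold of 0.05. Replicates differed across genes with a standard deviation (log2) of 0.43 for the control pair, 0.45 for the DZNep pair and 0.14 for the shEZH2 pair. EZH2 itself was at 36 and 42 in controls, 26 and 26 after DZNep and 18 and 18 after silencing, and it fell in both contrasts (log2 fold change -0.64, adjusted p = 0.0248, and -1.12, adjusted p = 0.0171, from limma). Of 8 epithelial carcinoma markers 6 were in the matrix. KRT7 had values of 350 to 597, KRT8 of 816 to 3540 and KRT18 of 1080 to 4398. PAX8 was at 10 to 19, EPCAM at 5 to 12 and WT1 at 1 to 2. With DZNep, KRT8 (log2 fold change 1.76, adjusted p = 0.000977 from limma) and KRT18 (1.65, adjusted p = 0.00145) were higher. PAX8 was lower (-0.69, adjusted p = 0.0254). Summed markers of other cell types, of which only some symbols were in the matrix, reached 11 to 17 for fibroblasts (2 of 4 symbols), 1 to 2 for leukocytes (1 of 3) and 0 to 2 for endothelium (1 of 3). Abundant non-coding RNAs held 11.9% to 18.2% of each sample's total, with RN7SL1 at 5.39% to 10.0% and RPPH1 at 1.87% to 3.71%. RN7SK was at 5.71% and 4.23% in controls, 2.26% and 1.59% after DZNep and 3.63% and 4.0% after silencing. Of the other RNAs of that list with a mean of at least 50, RMRP had values of 6920 to 11384, SNHG1 of 132 to 165 and TERC of 29 to 84. MALAT1 was at 1845 and 4435 in controls, 973 and 1760 after DZNep and 2468 and 2297 after silencing. In the same order NEAT1 was at 411 and 737, 85 and 94, and 313 and 285. GAS5 was at 297 and 257, 172 and 169, and 204 and 213. By limma MALAT1 (adjusted p = 0.0258), NEAT1 (0.000163) and GAS5 (0.0141) were lower with DZNep, and NEAT1 also with shEZH2 (0.0476). The part of these RNAs in the differences below was not tested. In bulk RNA, more mitochondria or genomes per cell and more RNA per genome cannot be told apart.

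The whole set of MT- genes took a larger share of the RNA in both treated groups. Their summed value was 2212 and 2763 in controls, 3710 and 3920 after DZNep and 4636 and 3906 after silencing. All 4 treated samples were above both control samples, whereas the DZNep and shEZH2 samples lay close together, with shEZH2 replicate 2 between the DZNep replicates. As a share of the sample total this was 0.249% ± 0.039 in controls, 0.381% ± 0.0148 after DZNep and 0.427% ± 0.0516 after silencing (SD, n = 2), or 1.53 and 1.72 times the control share. With 2 samples against 2, an exact two-sided permutation test cannot go below p = 0.333, so no test was made of these sums. MT-CO1, the catalytic core of cytochrome c oxidase, made up 56.4% to 67.1% of the summed protein-coding value of a sample, which says how far it sets the sum and not how its level per length compares with other genes.

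**Figure D1:**
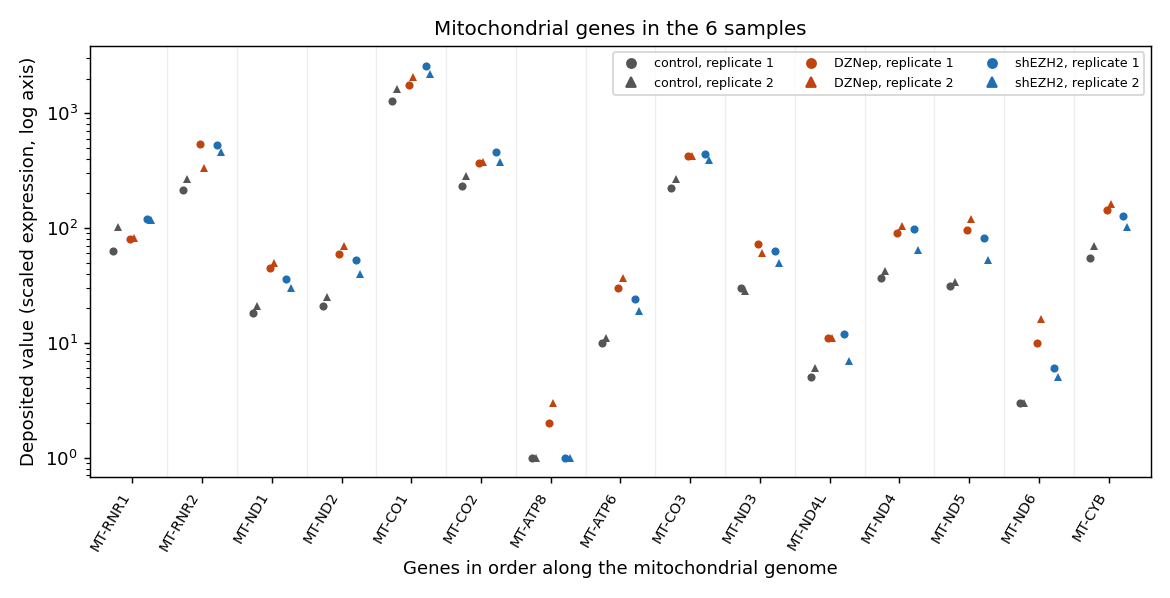
Deposited value (scaled expression, log axis) of the 15 mitochondrial genes in each of the 6 samples, in their order along the genome, with circles for replicate 1 and triangles for replicate 2. The DZNep and shEZH2 points of the protein-coding genes lie above both control points for every gene but MT-ATP8, where both shEZH2 samples share the control value of 1.

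Most mitochondrial messages were higher in DZNep than in control cells. Of the 14 MT- genes tested, 10 rose and 0 fell at an adjusted p under 0.05 (limma), against 21.6% of all tested genes that were higher and 20.6% that were lower. MT-ND6 and MT-ND4L entered the test only through treated samples, where they were high, so their calls give no support for an increase. Of the 12 genes at the limit of 10 in both controls, 8 rose and 0 fell. The 10 were the 7 subunits of complex I, MT-CYB of complex III, MT-ATP6 of complex V and MT-CO3 of complex IV. MT-CO1, MT-CO2 and the ribosomal RNAs did not pass. The median log2 fold change was 1.12 over the 14 genes and 1.18 over the 12 protein-coding ones, and 0.01 over all tested genes. For 13 of the 14 the scaled values of DZNep cells lay above those of control cells without overlap, against 34.2% of all tested genes. At the thresholds of the study's methods (log2 fold change above 1 and unadjusted P under 0.05), 8 of the 14 were higher, against 10.2% of all tested genes. Of the 10, 9 kept an adjusted p under 0.05 in every alternative in which one was computed, the exception being MT-ND4L, while MT-CO3 and MT-ND4L did not reach the fold of the study's thresholds. MT-ATP8 was too low to test, with 1 and 1 in controls, 2 and 3 after DZNep and 1 and 1 after silencing.

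The messages for complex I, which passes electrons from NADH to ubiquinone, included MT-ND6 and MT-ND5. These had the largest log2 fold changes with DZNep among the 14 tested mitochondrial genes. MT-ND6, the only message on the other strand (chrM:14149-14673), was at 3 and 3 in controls, 10 and 16 after DZNep and 6 and 5 after silencing. Its log2 fold change with DZNep was 1.70 (standard error 0.22, adjusted p = 0.000829 from limma). MT-ND6 entered the test only through the DZNep samples, where it is high, so this call gives no support for an increase. Whether the quantification used strand is not stated, so its reads and those of the antisense precursor cannot be told apart. MT-ND5 (chrM:12337-14148) was at 31 and 34 in controls, 96 and 119 after DZNep and 81 and 53 after silencing. Its increase with DZNep was 1.61 (standard error 0.21, adjusted p = 0.000863), and no treated value overlapped the control values. MT-ND2 had 21 and 25 in controls, 59 and 70 after DZNep and 53 and 40 after silencing, with an increase of 1.37 in DZNep cells (standard error 0.18, adjusted p = 0.00103). For MT-ND4 the values were 37 and 42 in controls, 91 and 104 after DZNep and 98 and 64 after silencing. Its increase with DZNep was 1.20 (adjusted p = 0.00303). MT-ND1 went from 18 and 21 in control to 45 and 50 in DZNep (log2 fold change 1.16, adjusted p = 0.00174) and was at 36 and 30 in shEZH2 cells. MT-ND3 went from 30 and 28 to 72 and 61 in DZNep (1.08, adjusted p = 0.00654) and was at 63 and 50 in shEZH2 cells. MT-ND4L, the short gene whose end overlaps MT-ND4, was at 5 and 6 in controls, 11 and 11 after DZNep and 12 and 7 after silencing. It also entered the test only through treated samples, so its call (0.82, adjusted p = 0.0332 from limma) gives no support for an increase. The call was lost without control replicate 1, control replicate 2 or DZNep replicate 1, with differences of 0.75, 0.84 and 0.71.

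MT-CYB, the cytochrome b of complex III, was at 55 and 69 in controls, 143 and 162 after DZNep and 126 and 102 after silencing, and rose by 1.21 with DZNep (standard error 0.17, adjusted p = 0.00122). MT-ATP6, a membrane subunit of the ATP synthase, was at 10 and 11 in controls, 30 and 37 after DZNep and 24 and 19 after silencing. Its increase with DZNep was 1.50 (standard error 0.19, adjusted p = 0.00079). For both genes the 3 groups were ordered control, shEZH2, DZNep with no overlap.

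The messages for complex IV, cytochrome c oxidase, had smaller log2 fold changes with DZNep. MT-CO3 was at 222 and 267 in controls, 421 and 419 after DZNep and 443 and 389 after silencing, and rose with DZNep by 0.70 (standard error 0.17, adjusted p = 0.0119). MT-CO2 was at 232 and 281 in controls, 367 and 378 after DZNep and 454 and 379 after silencing, a difference of 0.46 between DZNep and control (adjusted p = 0.0567). MT-CO1 was at 1271 and 1608 in controls, 1743 and 2076 after DZNep and 2596 and 2196 after silencing, a difference of 0.33 (standard error 0.17, adjusted p = 0.153). The DZNep values of all 3 subunits were above the control values. MT-CO2 was called with the values as deposited (adjusted p = 0.031), the length and GC correction (0.0194) and the replicate block (0.0225). Without DZNep replicate 2 its difference was 0.58.

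The ratio between the messages of different complexes also differed between samples, as a description with no test. The 7 complex I messages summed to 145 and 159 in controls, 384 and 431 after DZNep and 349 and 249 after silencing, which is 2.68 and 1.97 times the control mean. The 3 complex IV messages summed to 1725 and 2156, 2531 and 2873, and 3493 and 2964, or 1.39 and 1.66 times the control mean. MT-CO1 made up most of each sum, with 1271 and 1608, 1743 and 2076, and 2596 and 2196, and so largely sets the ratio. The complex I sum was thus 8.41% and 7.37% of the complex IV sum in control cells, 15.2% and 15.0% in DZNep cells and 9.99% and 8.40% in shEZH2 cells. The DZNep samples stood above the other 4 samples in this ratio, while 1 shEZH2 sample lay above the control range and 1 within it.

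Neither RNA of the mitochondrial ribosome was called in any comparison of the main fit, although MT-RNR2 was close to the threshold in both contrasts with control. Both were called under some of the alternative settings, as given below. MT-RNR1, of the small subunit, was at 63 and 101 in controls, 80 and 82 after DZNep and 119 and 117 after silencing, with a difference of -0.06 between DZNep and control (adjusted p = 0.829) and of 0.51 between shEZH2 and control (adjusted p = 0.158). MT-RNR2, of the large subunit, was at 213 and 266 in controls, 540 and 332 after DZNep and 524 and 454 after silencing, with differences of 0.75 (adjusted p = 0.0701) and 0.98 (adjusted p = 0.0721). The DZNep replicates of MT-RNR2 differed from each other more than they did for any other mitochondrial gene, and without DZNep replicate 2 its difference from control was 1.24 (adjusted p = 0.00282). With the values as deposited (0.0444) and the length and GC correction (0.047) it was also called with DZNep. With shEZH2 it was called without DZNep replicate 1 (0.0116) or DZNep replicate 2 (0.012), with only the 2 groups compared (0.0112) and with the length and GC correction (0.0297). With the replicate block the adjusted p of MT-RNR2 was 0.00078 with DZNep and 8.05e-05 with shEZH2, and that of MT-RNR1 was 0.0317 with shEZH2 and 0.0166 in the direct comparison. Ribosomal RNA had been removed with beads before sequencing, and the part of that step in these values was not tested.

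**Figure D2:**
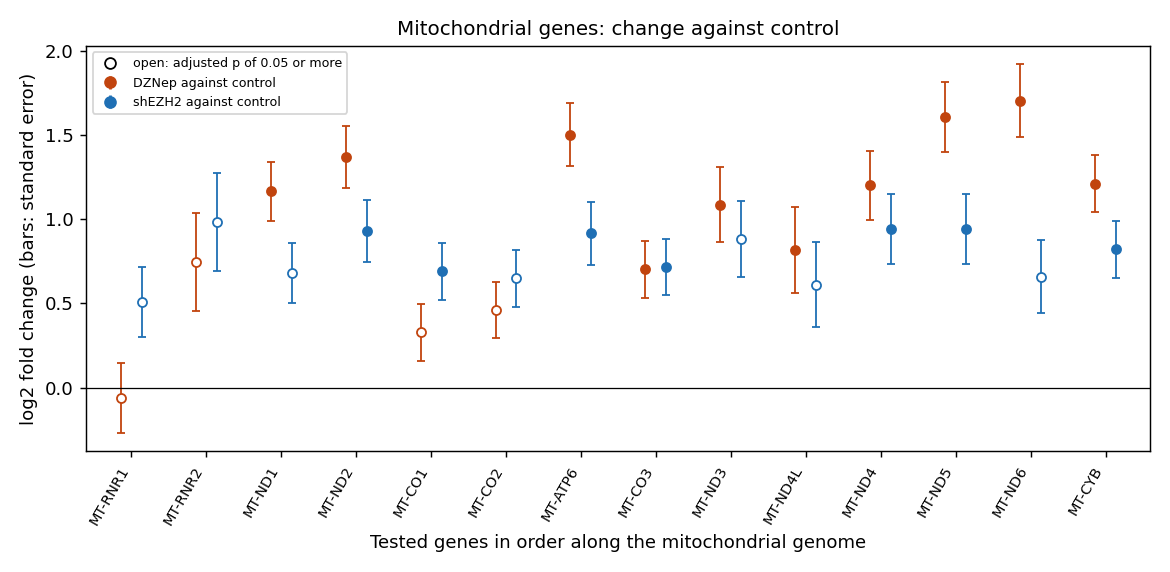
Log2 fold change against control (vertical axis) of the 14 tested mitochondrial genes in genome order (horizontal axis), for DZNep (orange) and shEZH2 (blue), with bars for the standard error and open symbols for an adjusted p of 0.05 or more. The DZNep changes range from -0.06 for MT-RNR1 to 1.70 for MT-ND6, which entered the test only through the DZNep samples. The shEZH2 changes lie between 0.51 and 0.98.

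In shEZH2 cells some messages of each of complexes I, III, IV and V were higher than in control cells, and none was lower. All 14 tested MT- genes had positive differences from control, between 0.51 and 0.98 on the log2 scale, with a median of 0.77 against -0.01 over all tested genes. By limma 7 of the 14 rose and 0 fell at an adjusted p under 0.05, against 3.6% of all tested genes that were higher and 4.38% that were lower. These were MT-ND4 (0.94, adjusted p = 0.0343), MT-ND5 (0.94, adjusted p = 0.0338), MT-ND2 (0.93, adjusted p = 0.0257), MT-ATP6 (0.91, adjusted p = 0.029), MT-CYB (0.82, adjusted p = 0.0291), MT-CO3 (0.72, adjusted p = 0.0412) and MT-CO1 (0.69, adjusted p = 0.0476). At an unadjusted P under 0.05 all 14 were higher, against 14.6% of all tested genes. The scaled values of shEZH2 and control cells did not overlap for any of the 14, with shEZH2 higher, against 32.7% of all tested genes. At a log2 fold change above 1 and unadjusted P under 0.05 none of the 14 was called, against 2.24% of all tested genes.

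These calls depended on how the shEZH2 samples were counted. The calls of the 7 genes were lost when the mean of both shEZH2 samples served as 1 sample. They were also lost without shEZH2 replicate 1, shEZH2 replicate 2 or control replicate 2. Calls over all tested genes fell in each of these fits too, so the loss is not particular to the mitochondrial genes. Without these samples the median difference of the tested protein-coding MT- genes was 0.65, 0.98 and 0.76, against 0.77 in the main fit. Without control replicate 1 the calls of MT-CO1, MT-CO3 and MT-CYB were lost and MT-ND3 was gained. Their differences were then 0.59, 0.65, 0.72 and 0.99. More MT- genes were called without DZNep replicate 1 or DZNep replicate 2, as were more of all tested genes. MT-CO1 and MT-CO3 were also lost with no filter on low values (0.054 and 0.0524) and with no trend in limma (0.0529 for both), and MT-CO1 with median-ratio scaling (0.0505). The shEZH2 replicates differed by a standard deviation of 0.14 over all genes, yet 13 of the 14 mitochondrial genes were higher in replicate 1 than in replicate 2, by a median of 0.21 and up to 0.64 (log2). The DZNep and shEZH2 contrasts share the 2 control samples, and their values are given side by side for that reason.

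In the direct comparison of the treated groups, MT-ND6 was lower in shEZH2 than in DZNep cells by 1.04 on the log2 scale (standard error 0.22, adjusted p = 0.0274 from limma). It was the 1 MT- gene called lower, with 0 called higher, against 3.94% and 4.84% of all tested genes. Since it entered the test only through the DZNep samples, where it is high, and could not be tested when either of them was left out, this call gives no support for a difference. Of the 12 genes at the limit in both controls, 0 were called in this comparison by limma, with 5 lower and 1 higher at an unadjusted P under 0.05. At an unadjusted P under 0.05, 6 of the 14 were lower and 1 higher, against 13.4% and 13.8% of all tested genes. The 6 were complex I, III and V messages, with MT-ND5 at -0.66 (adjusted p = 0.0842), MT-ATP6 at -0.59 (adjusted p = 0.0898) and MT-CYB at -0.39 (adjusted p = 0.184) among them, and the 1 was MT-RNR1 at 0.57 (adjusted p = 0.123). For MT-CO3 the difference was 0.02 (standard error 0.17, adjusted p = 0.965). The call of MT-ND6 was lost without shEZH2 replicate 1 (adjusted p = 0.158) or shEZH2 replicate 2 (0.276), or with these samples averaged (0.248).

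Most nuclear genes of the machinery were not called with DZNep. Of the 21 tested, 3 rose and 3 fell (limma, adjusted p under 0.05), shares below the 21.6% and 20.6% of all tested genes, and their median log2 fold change was -0.08. FASTKD5, MTPAP and TFB2M rose, whereas LRPPRC, POLG and TFB1M fell. FASTKD5 and MTPAP kept an adjusted p under 0.05 in all 18 alternatives in which one was computed, and the other 4 lost the call in at least 1. Only FASTKD5 also passed the fold of the study's thresholds. The values of DZNep and control cells did not overlap for 7 genes that were higher and 6 that were lower, against 34.2% and 31.6% of all tested genes. With shEZH2, 0 of the 21 rose and 0 fell by limma, while 2 were higher and 0 lower at an unadjusted P under 0.05, against 14.6% and 13.4% of all tested genes. Non-overlapping values were seen for 5 higher and 9 lower genes with shEZH2, against 32.7% and 32.1% of all tested genes.

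**Figure D3:**
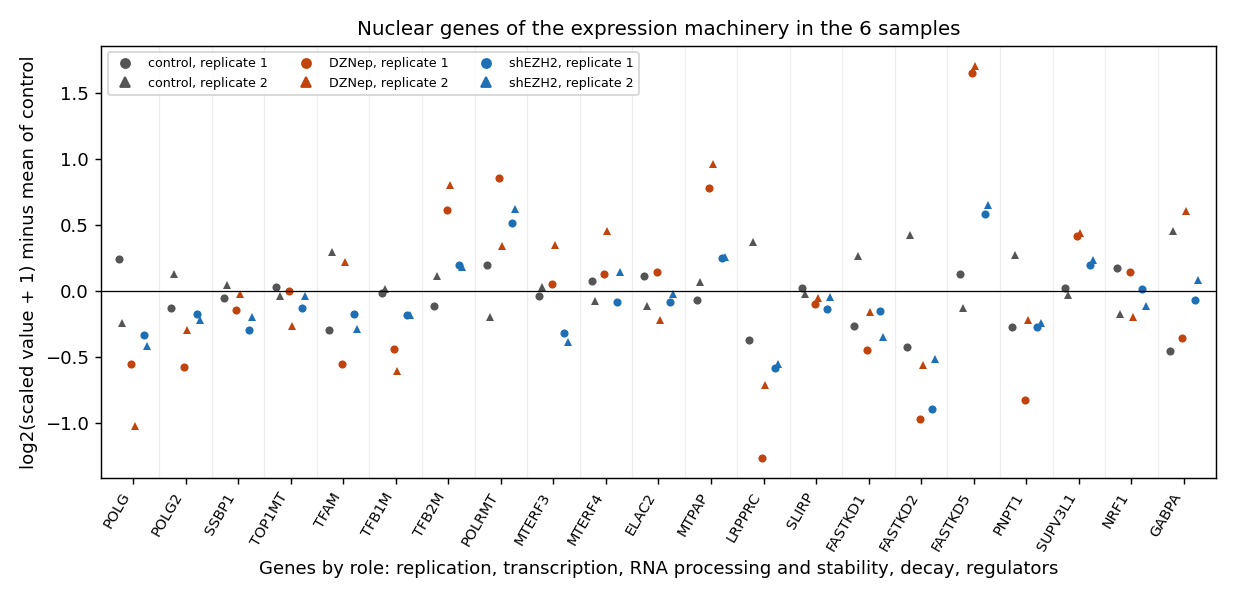
Log2 of the scaled value + 1 in each of the 6 samples minus the mean of the control samples (vertical axis) for the 21 tested nuclear genes, ordered by role, with circles for replicate 1 and triangles for replicate 2. FASTKD5 and MTPAP stand clear of control in both DZNep samples, while TFAM, LRPPRC, PNPT1, FASTKD2 and GABPA differ between the replicates of control and of DZNep cells.

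Of the 4 members that act in replication of mitochondrial DNA, POLG fell with DZNep and the others were not called in the main fit. POLG (chromosome 15 from 89305198 to 89334861, GRCh38), the catalytic subunit of the mitochondrial DNA polymerase, was at 126 and 101 in controls, 74 and 64 after DZNep and 95 and 85 after silencing. It fell by 0.79 with DZNep on the log2 scale (standard error 0.23, adjusted p = 0.0262), and the difference with shEZH2 was -0.37 (adjusted p = 0.322). The DZNep call was lost without control replicate 1 (adjusted p = 0.0773), DZNep replicate 2 (0.0894) or shEZH2 replicate 2 (0.0544). POLG2, its accessory subunit, was at 11 and 15 in controls, 8 and 12 after DZNep and 12 and 11 after silencing, with no call. SSBP1, which coats single-stranded mitochondrial DNA, had values of 84 to 112 in the 6 samples, and TOP1MT, the mitochondrial topoisomerase, of 58 to 62. Their log2 differences from control were between -0.25 and -0.08 for both treatments. With the length and GC correction, POLG2 (-0.58, adjusted p = 0.0488) and TOP1MT (-0.47, adjusted p = 0.0261) were called lower with DZNep. POLG was called lower with shEZH2 under this correction (-0.55, adjusted p = 0.0133).

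Among the transcription factors and the polymerase, the 2 homologues TFB1M and TFB2M moved in opposite directions. TFB2M (chromosome 1 from 246540561 to 246566261), which opens the promoter for the polymerase, was at 12 and 16 in controls, 21 and 29 after DZNep and 17 and 16 after silencing. It rose with DZNep by 0.71 (standard error 0.19, adjusted p = 0.0201). TFB1M (chromosome 6 from 155256134 to 155314493), which methylates the small ribosomal RNA, was at 20 and 23 in controls, 15 and 16 after DZNep and 20 and 19 after silencing. It fell with DZNep by 0.52 (standard error 0.18, adjusted p = 0.049), a call lost when any of the 6 samples was left out (adjusted p 0.0664 to 0.184) and under 4 other alternatives with an adjusted p (0.0532 to 0.165). That of TFB2M was lost without control replicate 1 (adjusted p = 0.0846), DZNep replicate 2 (0.0535), shEZH2 replicate 1 (0.0636) or shEZH2 replicate 2 (0.0671), with only the 2 groups compared (0.0719) and with the shEZH2 samples averaged (0.0726). POLRMT, the mitochondrial RNA polymerase, was at 66 and 56 in controls, 107 and 90 after DZNep and 93 and 95 after silencing. All its treated values were above the control values, with differences of 0.60 (adjusted p = 0.0635) and 0.57 (adjusted p = 0.147) that did not pass the threshold. Without control replicate 1 or DZNep replicate 2 its adjusted p with DZNep was 0.0305 and 0.0168, and with the values as deposited 0.0156. TFAM, which packages mitochondrial DNA and bends its promoters, was at 40 and 68 in controls, 34 and 71 after DZNep and 49 and 43 after silencing. The replicates of control and DZNep cells lay further apart than the groups, and the difference was -0.17 with DZNep (adjusted p = 0.674) and -0.23 with shEZH2 (adjusted p = 0.643). MTERF3 and MTERF4, of the family of termination factor homologues, had values of 9 to 18 and of 16 to 26 with no call. TEFM, the elongation factor, was below the limit, with 3 and 5 in controls, 7 and 11 after DZNep and 4 and 6 after silencing, and MTERF1 was at 3 to 7.

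RNA processing and stability held the largest change of a nuclear member. FASTKD5 (chromosome 20 from 3146519 to 3159865), the RNA-binding protein needed where precursors lack a transfer RNA, was at 14 and 13 in controls, 43 and 54 after DZNep and 22 and 22 after silencing. It rose with DZNep by 1.68 (standard error 0.19, adjusted p = 0.00047), and its difference with shEZH2 was 0.62 (adjusted p = 0.0748). In the direct comparison it was lower in shEZH2 than in DZNep cells by 1.06 (adjusted p = 0.0167 from limma). It was the 1 nuclear member called lower there, with 0 called higher, against 3.94% and 4.84% of all tested genes, and at an unadjusted P under 0.05 the counts were 4 and 0, against 13.4% and 13.8%. This call was lost without shEZH2 replicate 1 (adjusted p = 0.174) or shEZH2 replicate 2 (0.198), or with these samples averaged (0.212). FASTKD1, of the same family, was at 8 to 15 in the 6 samples with no call. FASTKD2, which binds the large ribosomal RNA, was at 9 and 19 in controls, 6 and 10 after DZNep and 7 and 9 after silencing (difference with DZNep -0.77, adjusted p = 0.0844). Without control replicate 1 the difference was -1.22 with DZNep (adjusted p = 0.00918) and -1.15 with shEZH2 (adjusted p = 0.0389).

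MTPAP (chromosome 10 from 30309801 to 30374448), which adds the poly(A) tails of mitochondrial messages, was at 17 and 21 in controls, 32 and 44 after DZNep and 24 and 23 after silencing. It rose with DZNep by 0.87 (standard error 0.18, adjusted p = 0.00669), and the difference with shEZH2 was 0.25 (adjusted p = 0.397). LRPPRC (chromosome 2 from 43886224 to 43996226), which with SLIRP stabilises the messages, was at 101 and 190 in controls, 55 and 98 after DZNep and 98 and 95 after silencing. It fell with DZNep by 0.99 (standard error 0.28, adjusted p = 0.0229). The higher DZNep value lay just under the lower control value, and the call was lost without control replicate 2 (adjusted p = 0.0897), DZNep replicate 1 (0.113) or shEZH2 replicate 2 (0.0514), and with the values as deposited (0.105). The difference with shEZH2 was -0.57 (adjusted p = 0.223), and without control replicate 1 it was -0.95 (adjusted p = 0.0469). Its partner SLIRP was at 49 and 53 in controls, 46 and 57 after DZNep and 49 and 50 after silencing, with differences of -0.08 and -0.09. ELAC2, which cuts the end of transfer RNAs, had values of 132 to 144 in all 6 samples, and TRMT10C, a subunit of the enzyme that cuts their start, was below the limit at 4 to 13.

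The enzymes of RNA decay, PNPT1 and SUPV3L1, are known to work as a complex, and neither was called in the main fit. SUPV3L1, the helicase, was at 37 and 40 in controls, 50 and 61 after DZNep and 47 and 46 after silencing. Its difference with DZNep was 0.43 (adjusted p = 0.0646). It was called higher with the values as deposited (adjusted p = 0.0431), the length and GC correction (0.0136) and the replicate block (0.0476). PNPT1, the nuclease, was at 32 and 53 in controls, 22 and 41 after DZNep and 36 and 35 after silencing. Its difference with DZNep was -0.52 (adjusted p = 0.146), or -0.83 without control replicate 1 and -0.82 without DZNep replicate 2. With the replicate block PNPT1 was called lower (adjusted p = 0.0214). The transcription factors known to control many of these nuclear genes were not called. NRF1 had values of 13 to 15 in the 6 samples, and GABPA of 10 to 27, with replicate 2 above replicate 1 in control and DZNep cells. Differences from control were -0.03 and -0.05 for NRF1 and 0.13 and 0.01 for GABPA. PPARGC1B, a coactivator, was below the limit at 4 to 8.

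**Figure D4:**
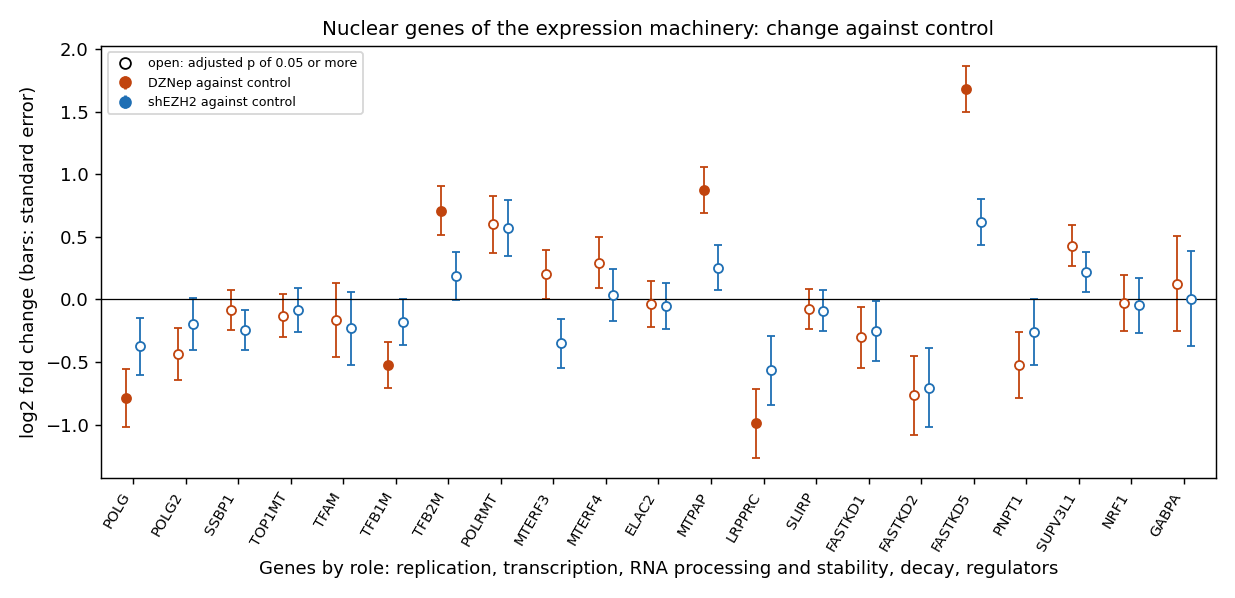
Log2 fold change against control (vertical axis) of the 21 tested nuclear genes ordered by role (horizontal axis), for DZNep (orange) and shEZH2 (blue), with bars for the standard error and open symbols for an adjusted p of 0.05 or more. FASTKD5 rose most with DZNep (1.68) and LRPPRC fell most (-0.99), and no shEZH2 difference passed the threshold.

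The promoters of TFB1M, TFB2M and MTPAP are shown because they hold the same motif while the genes differed in direction with DZNep. Windows from 250 bases before to 50 bases after each start site came from RefSeq (GRCh38.p14), and 21 of the 25 listed genes had an entry, whereas FASTKD5, NRF1, MTERF3 and TOP1MT had none. The core of the NRF1 site, CGCATGCG on either strand, was in 4 of the 21 (TFB1M, TFB2M, MTPAP and POLRMT) and in at least 1 window of 2.46% of 27305 genes (2.02% of their 35116 windows). The ETS site bound by GABP, CCGGAAG on either strand, was in 11 of the 21 and in 12.2% of all genes (10.3% of windows), and AAGATGGC, the core of the YY1 site, was in 3 of the 21 and in 3.52% of all genes (2.89% of windows). In the sequences below, which stop at the base before the start site, capitals mark the NRF1 core and, in TFB1M, also the ETS site on the other strand. The marked motifs do not overlap in these 3 sequences.
TFB1M, chr6:155314485-155314734, minus strand: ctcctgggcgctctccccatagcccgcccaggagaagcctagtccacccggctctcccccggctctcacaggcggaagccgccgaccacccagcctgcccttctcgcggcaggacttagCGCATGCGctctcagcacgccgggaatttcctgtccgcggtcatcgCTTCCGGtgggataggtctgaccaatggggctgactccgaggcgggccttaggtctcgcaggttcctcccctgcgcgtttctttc
TFB2M, chr1:246566262-246566511, minus strand: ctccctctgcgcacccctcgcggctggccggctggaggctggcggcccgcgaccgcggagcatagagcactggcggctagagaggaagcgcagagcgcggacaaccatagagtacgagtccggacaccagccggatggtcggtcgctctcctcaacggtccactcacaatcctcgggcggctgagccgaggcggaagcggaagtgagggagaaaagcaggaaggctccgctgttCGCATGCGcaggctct
MTPAP, chr10:30349279-30349528, minus strand: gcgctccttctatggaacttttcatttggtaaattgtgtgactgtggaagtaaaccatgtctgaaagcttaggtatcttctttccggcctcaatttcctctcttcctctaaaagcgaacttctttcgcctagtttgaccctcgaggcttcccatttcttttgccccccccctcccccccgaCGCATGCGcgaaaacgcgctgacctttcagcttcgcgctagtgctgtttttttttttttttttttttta
The NRF1 core begins at -131 in TFB1M, -16 in TFB2M, -69 in MTPAP and -23 in POLRMT relative to the start site. The MTPAP window lies within the longer gene of the GENCODE annotation. Of the 4 genes with the core, TFB2M and MTPAP rose with DZNep, TFB1M fell and POLRMT did not pass the threshold, while the NRF1 message was at 13 to 15 in all samples. The windows of LRPPRC and POLG held none of the 3 motifs.

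Other genes of the pathway were taken from 5 lists with 89 symbols in the matrix, of which 75 were tested. With DZNep 23 of them rose and 9 fell, against 21.6% and 20.6% of all tested genes, and the median of their log2 fold changes was 0.20. By role, 9 of 20 genes of RNA processing rose and 1 fell, 7 of 14 of RNA modification rose and 2 fell, 5 of 20 of DNA maintenance rose and 2 fell, and 2 of 9 regulators rose and 1 fell. Of 12 translation factors, 0 rose and 3 fell by limma. At an unadjusted P under 0.05, 1 was higher and 3 were lower, against 2518 and 2419 of all 9671 tested genes. TK2, the mitochondrial thymidine kinase, was at 11 and 10 in controls, 38 and 44 after DZNep and 17 and 15 after silencing, and rose by 1.79 with DZNep (adjusted p = 0.000429). TRUB2, a pseudouridine synthase of mitochondrial RNA, was at 41 and 35, 137 and 134, and 64 and 65 (1.73, adjusted p = 0.000558), and DDX28, a helicase of mitoribosome assembly, at 24 and 18, 72 and 68, and 37 and 36 (1.62, adjusted p = 0.00135). The DZNep values of these genes were far above those of the other 4 samples, with shEZH2 in between.

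On the other side, LACTB2, a mitochondrial endonuclease, was at 25 and 44 in controls, 8 and 13 after DZNep and 16 and 16 after silencing, and fell by 1.69 with DZNep (adjusted p = 0.00177) and by 1.06 with shEZH2 (adjusted p = 0.0476). FBXL4, whose loss is known to deplete mitochondrial DNA, was at 19 and 20 in controls, 5 and 9 after DZNep and 10 and 9 after silencing, and fell by 1.48 (adjusted p = 0.00169) and by 1.01 (adjusted p = 0.0346). TRMT61B, a methyltransferase of mitochondrial RNA, was at 11 and 16 in controls, 5 and 8 after DZNep and 8 and 7 after silencing. Its difference with DZNep was -1.04 (adjusted p = 0.00803). TRMT61B reached the limit of 10 only in the controls, where it is high, so its call gives no support for a decrease. FBXL4 reached 10 only in both controls and in shEZH2 replicate 1, so it too needed the controls to enter the test. With shEZH2, 1 of the 75 genes rose and 2 fell, against 3.6% and 4.38% of all tested genes. The 1 was the transcription factor MYC, at 73 and 69 in controls, 201 and 207 after DZNep and 136 and 139 after silencing (log2 fold change with shEZH2 0.89, adjusted p = 0.0247). In the direct comparison 3 were lower in shEZH2 than in DZNep cells and 0 higher by limma, against 3.94% and 4.84% of all tested genes (14 and 4 at an unadjusted P under 0.05, against 13.4% and 13.8%). The 3 were TK2 (-1.27, adjusted p = 0.0108), the pyrimidine nucleotide carrier SLC25A33 (-1.11, adjusted p = 0.0128) and TRUB2 (-1.03, adjusted p = 0.0233).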

How the data were processed

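The 6 RNA-Seq samples of OVCAR8 cells were used, with groups and replicate numbers from the labels. According to the study's methods, total RNA was depleted of ribosomal RNA with beads, libraries were stranded, reads were trimmed with fastp, aligned to GRCh38 with STAR and the GENCODE annotation, and quantified with RSEM (versions of STAR and RSEM are not given in the sources used here). The deposited values are a score: the authors had scaled each sample to a common total and rounded to whole numbers, although the table is called a count matrix. Read depth is therefore unknown, and precision is limited by rounding and by 2 replicates per group.

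Because the values are not counts, the edgeR test of the study's methods was not used. TMM factors without weights (30% of log ratios and 5% of means trimmed) were computed, and log2(value + 1) was fitted with limma 3.58.1 in R 4.3.3 (lmFit, eBayes with trend, two-sided, Benjamini-Hochberg over 9671 genes), all 6 samples in 1 fit. The pseudocount understates changes of low genes. The test was tried on simulated data first. The members, lists and tests were chosen with earlier results of these data known. The text names all members, EZH2, the 3 highest and 3 lowest called genes per contrast of the other pathway lists, and abundant non-coding RNAs with a mean of at least 50. Gene positions are from GENCODE v44 and motifs were searched by exact match. In all, 20 alternatives were tried: other scalings, pseudocounts and filters, limma with no trend, only the groups compared, the replicate block, the shEZH2 samples averaged, the thresholds of the study's methods, a lowess correction for transcript length and GC content (span 0.3), alone and with the block, and each sample left out. Plots were made in matplotlib 3.10.9 (Python 3.11.15). ChIP-Seq and other experiments were not analysed here.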

Additional observations from a re-analysis of the deposited data

How the results depend on the processing

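The counts of called members moved with the settings as follows, given as higher and lower. With DZNep, the 10 mitochondrial genes that rose became 5 among genes with a mean of at least 50, where 9 were tested, and the 3 and 3 nuclear members became 5 and 1 with values as deposited, 6 and 6 with the length and GC correction, and 1 and 0 at a log2 fold change above 1 with unadjusted P, while 0 rose with a mean of at least 50. With shEZH2, the 7 mitochondrial genes that rose became 12 with only the 2 groups compared, 13 with the length and GC correction, 0 with the shEZH2 samples averaged, and 0 at the fold threshold, and the nuclear 0 and 0 became 3 and 1 with the length and GC correction. Between shEZH2 and DZNep, the mitochondrial 0 and 1 became 1 and 3 and the nuclear 0 and 1 became 1 and 4 with the length and GC correction, and the 1 of each became 0 with a mean of at least 50 or the shEZH2 samples averaged. With the length and GC correction, the nuclear members gained with DZNep were POLRMT, SUPV3L1 and GABPA, higher, and ELAC2, POLG2 and TOP1MT, lower. Those gained with shEZH2 were FASTKD5, MTPAP and POLRMT, higher, and POLG, lower. Calls over all 9671 tested genes moved as well. With the length and GC correction they rose from 4089 to 5677 with DZNep and from 772 to 2957 with shEZH2. Between the treated groups they rose from 849 to 3221. With only the 2 groups compared they rose from 772 to 1519 with shEZH2, and they fell with the shEZH2 samples averaged. The moves of the members are therefore not read as particular to them. The cause of these moves was not tested, except that a higher mean leaves fewer genes to test.

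The labels do not say whether equal-numbered samples were handled together, and the main fit did not pair them. With replicate number as a block in limma, more members were called with DZNep. POLRMT (adjusted p = 0.00464), SUPV3L1 (0.0476), MT-CO2 (0.0225) and MT-RNR2 (0.00078) were then higher, and FASTKD2 (0.00364) and PNPT1 (0.0214) lower. Deviations of equal-numbered samples had a correlation over all tested genes of 0.786 for control with DZNep, -0.02 for control with shEZH2 and -0.04 for the treated groups. With the replicate block the counts, mitochondrial then nuclear, were 5 and 5 nuclear with DZNep, 14 higher and then 2 and 2 with shEZH2, and 1 and 3 and then 2 lower between the treated groups, and no other count moved by over 1.5 times. With the block and the length and GC correction they were 6 and 6 nuclear with DZNep and 14 higher and then 3 and 3 with shEZH2. Between the treated groups they were 2 and 5 and then 2 and 5. Calls over all 9671 tested genes rose as well. The block took them from 4089 to 5384 with DZNep, 772 to 2735 with shEZH2 and 849 to 2540 between the treated groups. With the correction added they were 6213, 3819 and 4028. The members gained are therefore not read as a result particular to them.

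With single samples left out, 8 to 11 mitochondrial genes rose with DZNep and 0 to 11 with shEZH2, 2 to 3 nuclear members rose and 0 to 3 fell with DZNep, 0 to 2 fell with shEZH2, and 0 to 1 of each were lower in the direct comparison. Calls over all tested genes also moved between these fits, so the counts are not read as particular to the members. With samples left out, the ratio of the summed mitochondrial share to control was 1.38 to 1.72 for DZNep and 1.55 to 1.93 for shEZH2. Values as deposited made 62.2% of all called genes higher with DZNep in place of 51.2%, 66.0% in place of 45.1% with shEZH2, and 43.5% in place of 55.1% between the treated groups. The correction for length and GC covered 93.3% of tested genes and moved the median of the nuclear members with DZNep from -0.08 to 0.12. Over 105 single differences and these alternatives, 68 of 1929 values lost a call, 109 gained one and none that was called changed sign, whereas 71 that were not called in either fit did.

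Depth is unknown, and rounding limits the lowest members, such as MT-ATP8, MT-ND6 and MT-ND4L. With 2 samples a group, a p that misses the threshold does not show that values were alike.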

Other observations

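The proteins that translate and receive the mitochondrial messages were listed by symbol. Of 76 tested mitoribosomal proteins, 35 rose and 5 fell with DZNep (median log2 fold change 0.52), against 21.6% and 20.6% of all tested genes, and 2 rose and 0 fell with shEZH2 by limma, against 3.6% and 4.38% (20 and 3 at an unadjusted P under 0.05, against 14.6% and 13.4%). Of 78 nuclear subunits of the respiratory chain, 1 rose and 14 fell with DZNep (median -0.04), both shares below those of all tested genes, and 0 rose and 3 fell with shEZH2, also below them by limma (2 and 9 at an unadjusted P under 0.05). The summed share of these respiratory chain genes was 1.29% to 1.40% of the total in every sample, while the share of the mitochondrial genes ran from 0.221% to 0.464%.

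Of the 21 nuclear members, 11 were higher in replicate 2 than in replicate 1 of both control and DZNep cells on the scaled log2 values, among them TFAM, LRPPRC, PNPT1, GABPA and FASTKD2, and 5 were higher in replicate 1 of both (POLRMT, POLG, ELAC2, TOP1MT and NRF1). This pattern was looked at after the values were seen. In shEZH2 cells the replicates of LRPPRC were 98 and 95, and those of GABPA 15 and 16. Nuclear copies of mitochondrial genes (MTATP6P1, MTCO1P12 and MTND2P28), which share sequence with them, summed to 6 to 12 per sample.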
